A study of Ovis aries with 3 samples.

Results

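The genes described here encode the peroxiredoxins, glutathione peroxidases and transferases, thioredoxins and their relatives, superoxide dismutases, catalase, glutaredoxins and metallothioneins, and their transcripts were measured in extracellular vesicles released by sheep conceptuses. They were taken from the table by a rule on their names. A row belonged to them if its symbol, without the numbered suffix of a copy, began with PRDX1 to PRDX6, GPX1 to GPX8, GSTA, GSTK, GSTM, GSTO, GSTP, GSTT or GSTZ, MGST1 to MGST3, TXN, SOD1 to SOD3 or GLRX, or was CAT or a metallothionein name of the MT1 or MT2 kind. This gave 50 rows with 49 names, of 25197 rows in all.

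Vesicles were precipitated from medium in which intact conceptuses of day 14 of pregnancy, each in its own dish, had been kept for 24 h. All 3 libraries belong to this single group, with no control group, and RNA of the conceptus cells was not analysed here. The medium held 10% fetal bovine serum from which exosomes had been depleted. Each library was made from 5 ng of total RNA with a kit for low RNA input that copies RNA from its poly(A) tail into full-length cDNA. The labels do not tie libraries to animals, and part of the spread among the 3 may be technical. The exact two-sided sign-flip test over 3 libraries cannot go below p = 0.25, so levels are given with their spread and without a test. Because each library started from the same amount of RNA, the values show neither the number of vesicles nor the RNA per vesicle.

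Cells dispose of reactive oxygen in steps. Superoxide dismutases turn superoxide into hydrogen peroxide, which catalase, peroxiredoxins and glutathione peroxidases reduce to water. Peroxiredoxins are restored by thioredoxin, and thioredoxin by thioredoxin reductase at the cost of NADPH, while glutathione peroxidases, glutathione transferases and glutaredoxins draw on glutathione. Metallothioneins are small cysteine-rich proteins that bind zinc and copper. At this stage the sheep conceptus elongates rapidly, and most of its surface is trophectoderm, the outer epithelium.

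Values are given to 1 decimal and are taken as RPKM-type, that is, scaled for the length of the gene and the depth of the library. No unit is named for them, and this scaling was inferred from the values. The summed value was 17481, 40060 and 9532 in libraries 1, 2 and 3, and that of library 2 was 4.20 times that of library 3. Depth differed less. The many copies of the U6 small nuclear RNA (1012 rows) gave values in steps of 1 read, and a read was worth an estimated 0.423, 0.542 and 0.449 there. By this measure the depth of libraries 1 and 3 was 1.28 and 1.21 times that of library 2. For transcripts of U6 length, a value of 1 thus stood for about 2.37, 1.85 and 2.23 reads. For longer transcripts the same value stood for more reads, in proportion to their length. Of the rows listed here as markers of trophectoderm, the keratin KRT8 stood at 26.3, 138.9 and 27.3 in libraries 1, 2 and 3. The interferon tau gene TP-1 stood at 6.7, 26.2 and 4.7, while GATA2 was listed at 0 and CDX2 stood at 0.5, 0.2 and 0. KRT8 made up most of the trophectoderm sum, and whether it came from trophectoderm only was not tested. Summed over each marker list, the 7 trophectoderm rows reached 35.7, 166.4 and 35.8, the 5 uterine epithelium rows 49.7, 137.1 and 7.8, the 8 extraembryonic endoderm rows 8.8, 17.1 and 11.2, and the 4 epiblast rows 2.6, 2.2 and 4.7. The 4 erythroid and the 4 leukocyte rows summed to at most 1.4 and 5.7. Nearly all of the uterine epithelium sum came from LGALS15, CST6 and IGFBP1. The other rows of that list, MUC1 (0.4, 0.1 and 0) and SERPINA14 (0, 0.4 and 0), were near 0. Most of the endoderm sum came from APOA1 (6, 10.3 and 6.3) and APOA2 (0.9, 5.4 and 2.9). SOX17 stood at 1, 0.9 and 0 and AFP at 0.1, 0.1 and 1.3, while GATA4, GATA6, APOB and TTR did not pass 0.3.

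PRDX5, MGST1 and TXN had the highest means of the 50 rows, and 24 of the 50 rows reached 1 in no library. A gene is termed detected here if none of its 3 values lay under 1. Of the 50 redox rows 12 were detected (24.0%), against 3.89% of all rows and 3.95% of rows with a gene symbol. Those 12 were PRDX5, MGST1, TXN, PRDX2, PRDX1, GLRX, SOD1_1, TXNL1, GSTP1, TXNDC17, TXNL4A and GLRX5. By library, 20, 26 and 13 of the 50 rows reached 1 in libraries 1, 2 and 3, against 9.37%, 13.6% and 7.88% of all rows. A further 9 rows did so in 2 libraries and 5 in 1 library. Of the remaining 24, 4 (GPX3, GPX8, TXNDC8 and TXNRD3) were listed at 0 throughout. Without library 3 the count was 20, and 7.29% of all rows then passed. Transcript length was not matched between these rows and the others, and the set was chosen with earlier results of these data known. The rate therefore describes this table only.

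**Figure D1:**
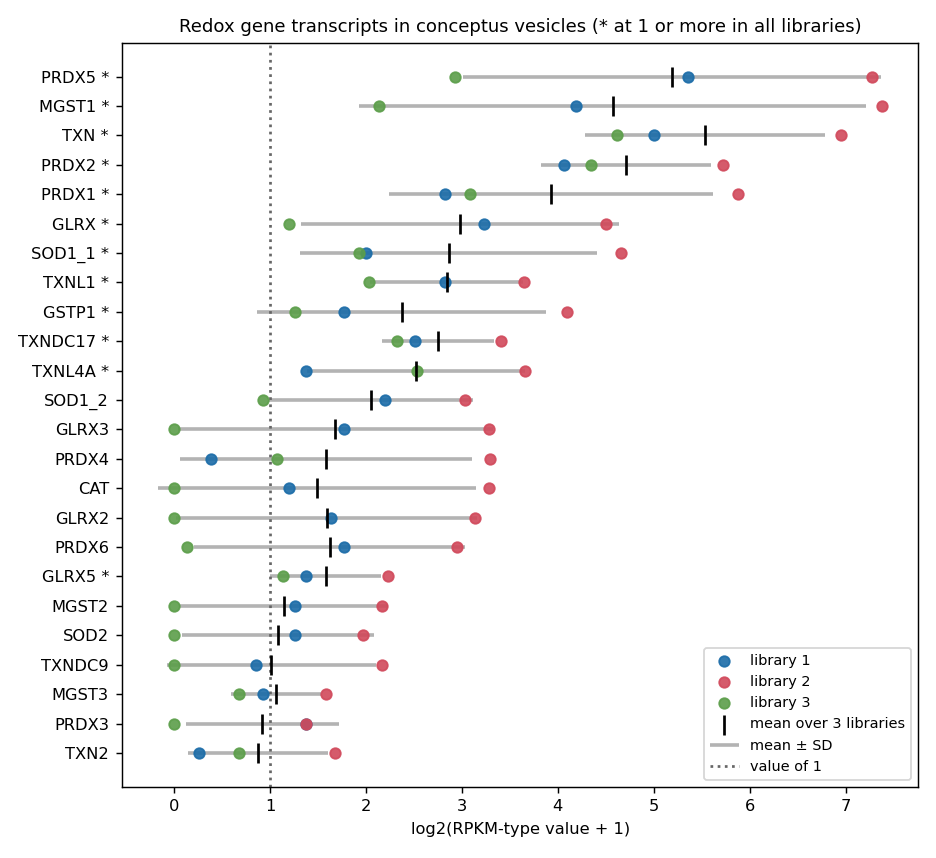
Values of the 24 redox gene rows that were detected or had a mean of at least 1, as log2(RPKM-type value + 1), with a point for each library, a bar for the mean and a grey line for the SD. Asterisks mark the 12 detected rows. Library 2 (red) holds the highest point of each row shown except PRDX3, where libraries 1 and 2 both stood at 1.6.

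The peroxiredoxins were the most abundant family, with 3 of 6 members detected. PRDX5, an atypical peroxiredoxin of mitochondria, peroxisomes and cytosol, stood at 40, 154.2 and 6.6 in libraries 1, 2 and 3, a mean of 66.9 ± 77.4 (SD, n = 3). It ranked 53rd and 27th of all rows in libraries 1 and 2 but 178th in library 3. PRDX2, a cytosolic enzyme best known from red blood cells, had 15.7, 51.6 and 19.3 (28.9 ± 19.8, SD, n = 3), and its rank was highest in library 3, where it was 37th. PRDX1, its close cytosolic relative, had 6.1, 58 and 7.5 (23.9 ± 29.6, SD, n = 3).

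The lead among the 3 abundant peroxiredoxins changed between libraries. PRDX5 exceeded PRDX2 by factors of 2.55 and 2.99 in libraries 1 and 2, and in library 3 it was at 0.342 of PRDX2. Within the summed value of the family, PRDX5 took 60.5%, 54.9% and 19.1% and PRDX2 took 23.8%, 18.4% and 55.8%. The family as a whole took a nearly fixed part of the summed value of the 50 rows, at 41.5%, 38.9% and 40.6% (40.3% ± 1.33, SD, n = 3). That steadiness was noticed after the values were seen.

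The other 3 peroxiredoxins were not detected. PRDX4, the form of the endoplasmic reticulum, stood at 0.3, 8.8 and 1.1, and so rested mainly on library 2. PRDX6, which also has phospholipase activity, stood at 2.4, 6.7 and 0.1. PRDX3, the mitochondrial form, stood at 1.6, 1.6 and 0 and was the lowest of the family in libraries 2 and 3.

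Thioredoxin itself was abundant in all 3 libraries, while the enzymes that reduce it were near 0. TXN, the cytosolic thioredoxin, stood at 31.1, 123 and 23.6 (59.2 ± 55.4, SD, n = 3). It was the highest of the 50 rows in library 3, where it ranked 33rd of all rows, and it ranked 67th and 44th in libraries 1 and 2. TXN2, the mitochondrial thioredoxin, reached only 0.2, 2.2 and 0.6, and TXN exceeded it by factors of 156, 55.9 and 39.3. TXNRD1, the cytosolic thioredoxin reductase, stood at 0, 0.5 and 0, the mitochondrial TXNRD2 at 0, 0.4 and 0, and TXNRD3 was listed at 0 in each library. All are taken as length-scaled levels and are rounded to 1 decimal, so ratios to TXN2 are rough. A listed 0 does not show that a transcript is absent.

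Among the 11 rows of thioredoxin-like and thioredoxin-domain proteins, 3 were detected. TXNL1, a cytosolic thioredoxin-like protein that associates with the proteasome, had 6.1, 11.5 and 3.1 (6.90 ± 4.26, SD, n = 3). TXNDC17, a small cytosolic disulfide reductase also known as TRP14, had 4.7, 9.6 and 4 (6.10 ± 3.05, SD, n = 3). TXNL4A, a component of the spliceosome despite its thioredoxin fold, had 1.6, 11.6 and 4.8 (6.0 ± 5.11, SD, n = 3). TXNDC9, a cytosolic protein that binds chaperonin, stood at 0.8, 3.5 and 0. The other 7 rows stayed at 1.2 or less in every library. They include TXNDC5, TXNDC11, TXNDC15 and TXNDC16, which act in the secretory pathway, and TXNDC2 and TXNDC8, which are known from sperm. TXNDC15 led these 7 with 0.2, 1.2 and 0.2.

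Among the glutathione transferases a microsomal enzyme had by far the highest mean, which rested mainly on library 2. MGST1, a membrane-bound transferase and peroxidase of the endoplasmic reticulum and outer mitochondrial membrane, stood at 17.3, 165.7 and 3.4 (62.1 ± 90.0, SD, n = 3). Library 2 was 9.58 times library 1 and 48.7 times library 3, and MGST1 was the highest of the 50 rows in library 2 only. It ranked 122nd, 24th and 417th of all rows in libraries 1, 2 and 3. MGST2, which can form leukotriene C, stood at 1.4, 3.5 and 0. MGST3, a related enzyme, stood at 0.9, 2 and 0.6, and neither was detected.

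Of the 8 cytosolic glutathione transferase rows, only GSTP1 was detected. This pi-class enzyme, known from placenta, stood at 2.4, 16.1 and 1.4 (6.63 ± 8.21, SD, n = 3), and MGST1 exceeded it by factors of 7.21, 10.3 and 2.43. GSTK1, GSTM3, GSTA4, GSTA1, GSTO2, GSTZ1 and GSTT1 did not reach 1 in any library. GSTK1, at 0, 0.4 and 0.8, had the highest value among these 7. The rule by name missed further transferase rows that carry only an Ensembl identifier. Of these, ENSOARG00000015023 (described as a glutathione S-transferase) stood at 0.9, 7.6 and 0.7, and ENSOARG00000019281 (glutathione S-transferase mu 1) at 1.8, 5 and 0.

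No glutathione peroxidase was detected, and the 6 rows summed to 0.1, 0.8 and 0.1 in libraries 1, 2 and 3. GPX2, the gastrointestinal form, stood at 0, 0.5 and 0.1, which was the highest of the 6 rows. GPX5, GPX6 and GPX7 did not pass 0.2, and GPX3, the secreted plasma form, and GPX8 were listed at 0. No row was named GPX1 or GPX4, and the row described as glutathione peroxidase 4, ENSOARG00000016879, was listed at 0 in each library. GPX4 is used by nearly all cells, so a listed 0 here cannot be told apart from a failed estimate. Among the members, 6 (GPX2, GPX3, GPX6, TXNRD1, TXNRD2 and TXNRD3) contain selenocysteine in human, and the highest value of any of them was 0.5. A selenoprotein outside the set, SEPW1, stood at 0.8, 5 and 2.5.

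Some glutaredoxins use glutathione to reduce mixed disulfides, and of the 4 rows of this family 2 were detected. GLRX, the cytosolic form (the deposited description reads only "uncharacterized protein"), stood at 8.4, 21.6 and 1.3 (10.4 ± 10.3, SD, n = 3). GLRX5, a mitochondrial protein of iron-sulfur cluster assembly, stood at 1.6, 3.7 and 1.2 (2.17 ± 1.34, SD, n = 3) and had the smallest SD of the detected rows on this linear scale. GLRX3, a cytosolic carrier of iron-sulfur clusters, stood at 2.4, 8.7 and 0, and the mitochondrial GLRX2 at 2.1, 7.8 and 0. Both were thus above the detected GLRX5 in libraries 1 and 2 and fell short of detection only in library 3. The ratio of TXN to GLRX was 3.70, 5.69 and 18.2.

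Superoxide dismutase transcripts were mostly those of the cytosolic copper-zinc enzyme, which has a pair of rows. SOD1_1 stood at 3, 24.2 and 2.8 (10.0 ± 12.3, SD, n = 3) and SOD1_2 at 3.6, 7.2 and 0.9 (3.90 ± 3.16, SD, n = 3). Both rows carry the same protein description, their ratio was 0.833, 3.36 and 3.11, and the division of reads between them is uncertain. Their sum was 6.6, 31.4 and 3.7. The mitochondrial manganese enzyme SOD2 stood at 1.4, 2.9 and 0. The secreted SOD3 stood at 0.9, 0.7 and 0.2. CAT, the peroxisomal catalase, stood at 1.3, 8.7 and 0.

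Metallothionein transcripts were close to the floor. MT1A stood at 0, 0.3 and 0 and MT2 at 0, 0 and 0.3 in libraries 1, 2 and 3. These genes have very short transcripts, so such a value stands for very few reads. The rows MT3 and MT4, which the rule does not take, were listed at 0.

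Among 7 members listed here as acting in mitochondria, the levels differed widely. Of PRDX3, PRDX5, TXN2, TXNRD2, SOD2, GLRX2 and GLRX5, 2 were detected, namely PRDX5 and GLRX5. PRDX5 also works outside mitochondria. In library 3 the other 5 stood at 0.6 or below. A list of members of the secretory pathway or outside the cell (PRDX4, GPX7, GPX8, TXNDC5, TXNDC11, TXNDC15, TXNDC16, SOD3 and GPX3) gave 0 detected rows of 9, with PRDX4 the highest. Neither list is complete. MGST1, of the endoplasmic reticulum and outer mitochondrial membrane, was detected and is counted in neither.

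**Figure D2:**
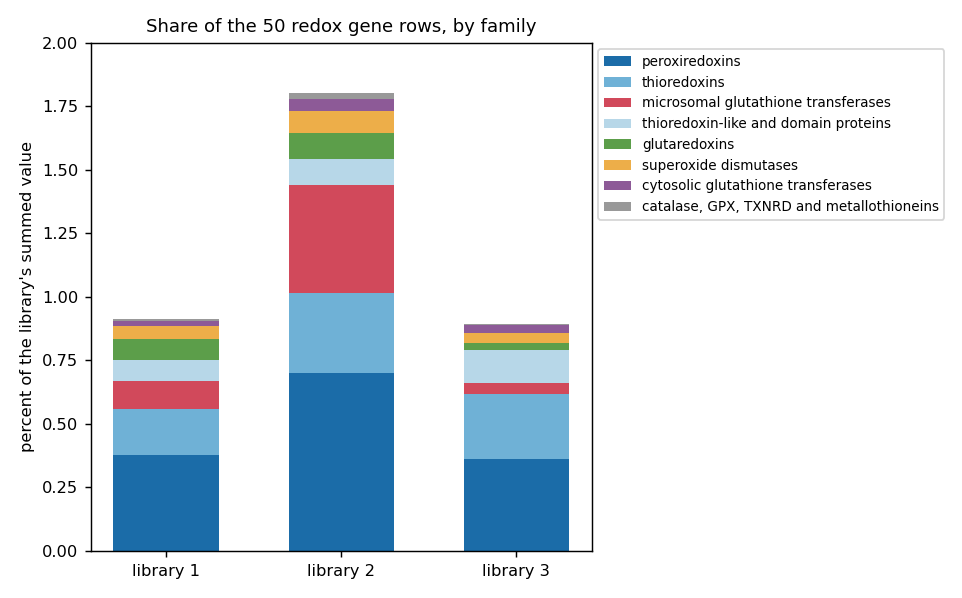
Percent of each library's summed value taken by the 50 redox gene rows, stacked by family. The whole bar stands at 0.911, 1.80 and 0.894 percent for libraries 1, 2 and 3, and the microsomal glutathione transferases (red) change most among the families.

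Together the 50 rows made up 0.911%, 1.80% and 0.894% of all signal in libraries 1, 2 and 3, a mean of 1.20% ± 0.520 (SD, n = 3). PRDX5, MGST1 and TXN made up 55.5%, 61.3% and 39.4% of this. Without MGST1 the shares were 0.812%, 1.39% and 0.858%, and without all 3 they were 0.406%, 0.698% and 0.541%. Library 2 was highest in each case. The microsomal transferases took 12.3%, 23.7% and 4.69% of the members' own sum, and the thioredoxins 19.6%, 17.3% and 28.4%. The share of thioredoxin-like and thioredoxin-domain proteins was 8.91%, 5.52% and 14.9%, and that of glutaredoxins 9.10%, 5.79% and 2.93%.

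Part of the lead of library 2 was shared by the whole table. On the deposited scale all 12 detected rows were highest in library 2, against 75.6% of all detected rows. With each column rescaled to the same total of 1000000 (parts per 1000000, ppm), 7 of the 12 were highest there, 1 in library 1 and 4 in library 3, against 27.4%, 14.8% and 57.8% of all detected rows. The 7 were MGST1, PRDX5, PRDX1, SOD1_1, GSTP1, GLRX and TXN. MGST1 stood at 990, 4136 and 357 ppm, so that library 2 was still 11.6 times library 3. PRDX1 stood at 349, 1448 and 787 ppm and GSTP1 at 137, 402 and 147. The lead of library 2 was small in GLRX, at 481, 539 and 136 ppm, and in TXN, at 1779, 3070 and 2476.

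Other members did not follow library 2. TXNL1 was nearly level, at 349, 287 and 325 ppm (320 ± 31.2, SD, n = 3). PRDX2 was highest in library 3, at 898, 1288 and 2025 ppm, and TXNL4A likewise at 91.5, 290 and 504. TXNDC17 stood at 269, 240 and 420 ppm and GLRX5 at 91.5, 92.4 and 126. On the deposited scale the sum of each marker list given above was highest in library 2, except that of epiblast. Rescaled, the trophectoderm rows summed to 2042, 4154 and 3756 ppm and the uterine epithelium rows to 2843, 3422 and 818 ppm, and the other 4 lists were highest in library 3. The trophectoderm sum consisted mostly of KRT8 and TP-1. Its transcription factors did not share their order on the deposited scale, with GATA3 at 0.9, 0.9 and 3, ELF5 at 1, 0.2 and 0.8 and TEAD4 at 0.3, 0 and 0. The part of such material in these differences was not tested.

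**Figure D3:**
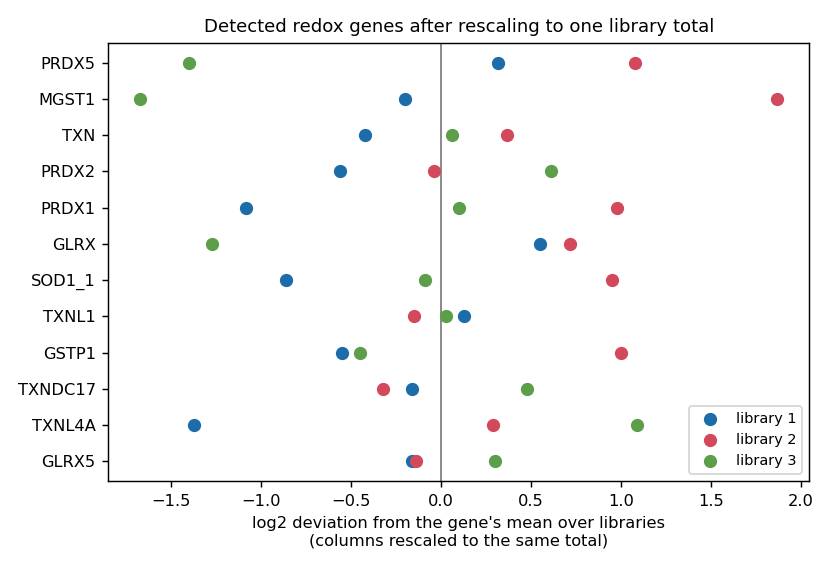
For each of the 12 detected rows, the log2 deviation of each library from the gene's mean over libraries, with columns rescaled to the same total. MGST1 runs from -1.67 in library 3 to 1.87 in library 2, TXNL1 stays within -0.15 and 0.13, and TXNL4A runs from -1.37 in library 1 to 1.09 in library 3.

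The order of the detected members was only partly stable. Of the 66 pairs among the 12 rows, 39 had the same order in all 3 libraries. Of the 11 pairs of neighbours in the order of means, 1 did so, TXN above PRDX2, by 0.82 ± 0.49 on the log2(value + 1) scale (SD, n = 3). PRDX5 exceeded MGST1 in 2 of 3 libraries, with a log2 difference of 0.62 ± 0.65, and MGST1 exceeded TXN only in library 2, with a difference of -0.96 ± 1.46 (SD, n = 3). The other neighbours, including GLRX and SOD1_1 (0.12 ± 1.01) and SOD1_1 and TXNL1 (0.02 ± 0.93; SD, n = 3), changed places in at least 1 library. Over all 50 rows, Spearman's rho was 0.89 between libraries 1 and 2, 0.66 between 1 and 3 and 0.65 between 2 and 3, and many of these rows share values at or near 0. Over the 12 detected members it was 0.80, 0.55 and 0.55, against 0.75, 0.61 and 0.51 over the 981 detected rows.

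On the deposited scale the detected redox rows had a wide spread. The SD of log2(value + 1) over libraries had a median of 1.38 over the 12 rows and 0.78 over the 981 detected rows, and 10 of the 12 lay above 0.78. With columns rescaled to the same total the medians were 0.89 and 0.73. Without library 2 the deposited values gave 0.31 over the 12 rows and 0.35 over the 981. The median level was also higher in the 12 rows. It was 2.83, 4.58 and 2.23 on the log2(value + 1) scale in libraries 1, 2 and 3, against 2.04, 2.98 and 1.81 over all detected rows. MGST1 had the largest SD of the 12, at 2.64, and 2 of the 981 rows exceeded it. TXNDC17 and GLRX5 had the smallest, at 0.58. Over all 50 rows, detected or not, the median level was 0.54 ± 0.50, against 0.14 for all rows of the table (SD, n = 3).

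**Figure D4:**
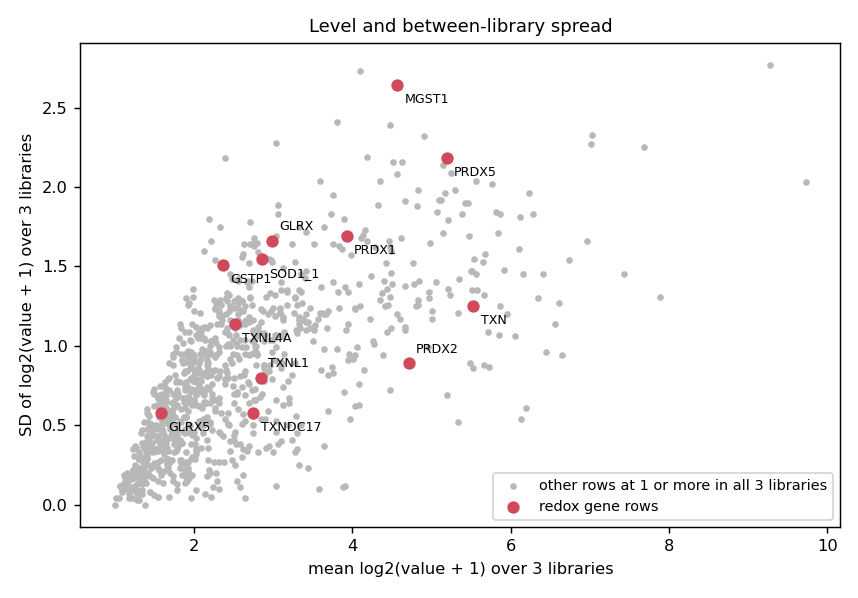
Mean and SD of log2(value + 1) over the 3 libraries for the 12 detected redox gene rows (red) and the other detected rows (grey). The SD tends to be larger where the mean is larger, and MGST1, with an SD of 2.64, lies near the top of the plot.

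Near the detection value a few calls rest on little. The 99th percentile of 476 olfactory receptor genes, taken as background, was 1.45, 1.025 and 1.75 in libraries 1, 2 and 3, and 0.630% of those genes were detected. Of the 12 detected redox rows 9 lay above it in every library, while GLRX, GSTP1 and GLRX5 were below it in library 3. Just under the detection value were SOD1_2, with a lowest value of 0.9, and MGST3, at 0.6, and just above it was GLRX5, at 1.2. Of the 12 rows with a mean of at least 1 that were not detected, 7 were listed at 0 in library 3, including CAT, GLRX3, GLRX2 and SOD2.

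Genes of the neighbouring pathways gave 3 detected rows of 93 (3.23%), against 3.89% of all rows. Both the count and its place beside all rows changed with the libraries used. It was 13 (14.0%) without library 1, against 5.06% of all rows, and also 13 without library 3, against 7.29%. In glutathione synthesis and recycling 0 of 14 rows were detected. The leading ones, ESD, which splits formylglutathione (4.2, 4 and 0 in libraries 1, 2 and 3), and GLO1, the glyoxalase (1.8, 4 and 0), were followed by CHAC1, which degrades glutathione (0.4, 0.9 and 0.1). None of the 11 genes listed for NADPH supply was detected. Not all of them make NADPH themselves. The leading ones were PGD (0.4, 2.7 and 6.2), TALDO1 (0.5, 4.6 and 1.5) and TKT (0.9, 3.1 and 1.7), all of the pentose phosphate pathway.

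Of 17 genes of the NRF2 pathway, the main transcriptional control of antioxidant enzymes, BLVRB, a biliverdin and flavin reductase, was detected (2.9, 15 and 2.5). The autophagy receptor SQSTM1 stood at 1.9, 21.1 and 0, and KEAP1, the inhibitor of NRF2, at 2.6, 2.9 and 0.3. Among 9 genes of superoxide and copper handling, 2 were detected. These were the copper chaperone ATOX1 (2.6, 14.4 and 2.7) and PARK7, a redox-sensing chaperone (2, 13.3 and 2.7). PON2, a lactonase of membranes, stood at 0.1, 1.7 and 1.6.

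No row was detected among 10 genes for selenoproteins and sulfoxide repair, 9 peroxisomal genes, 9 genes of the metal response and 14 disulfide isomerases. The selenoprotein list was led by SEPW1, given above, the sulfoxide reductase MSRB3 (0.6, 1.1 and 0.1) and the selenophosphate synthetase gene SEPHS1 (0.5 in each library). Of the peroxisomal genes, the biogenesis factors PEX19 and PEX16 stood at 0.5, 2 and 0 and at 0.3, 1.1 and 0.7. The zinc transporters SLC30A5 and SLC30A9 stood at 1.1, 0.7 and 0.4 and at 0.1, 1.1 and 0.1, and MTF1, the metal-sensing activator of metallothionein genes, at 0.8, 0.6 and 0.1. The isomerase PDIA6 stood at 0.1, 8.6 and 3.1, with ERP44 (1.3, 8.5 and 0) and ERP29 (2.4, 5.3 and 0.1) of the same compartment. The row VDUP1, described as thioredoxin interacting protein, an inhibitor of thioredoxin, is outside these lists and stood at 0.6, 2.8 and 3.

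**Figure D5:**
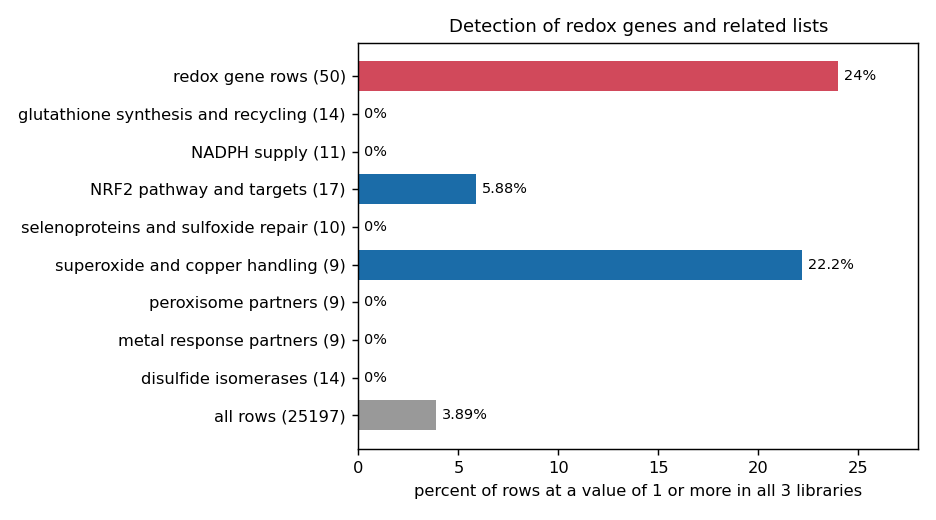
Percent of rows with no value under 1 in the 3 libraries, for the 50 redox gene rows (red), 8 lists of related genes (blue) and all rows of the table (grey), with the number of rows in brackets. The redox rows stand at 24.0 percent, the superoxide and copper list at 22.2 percent from only 9 rows, and all rows at 3.89 percent. The redox set and the lists were chosen with earlier results of these data known.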

How the data were processed

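RNA of conceptus vesicles was measured in 3 libraries of 1 group. The authors deposited a table of RPKM-type values, 1 column per library, rounded to 1 decimal. The file names no unit, and RPKM was inferred because steps depend on the gene and columns have no fixed total. FPKM would look alike. Per the submitters' processing notes, reads were placed on build Oar_v3.1. No aligner, counting tool or annotation release is given in the sources used here. Read counts and gene lengths were not used, so no count model was fitted, and the relative depth came from steps in U6 rows.

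Libraries were matched to columns by title and numbered in the order of the labels. Rows were chosen by symbol. Of the 49 names, 42 are symbols in the RefSeq gene table of ARS-UI_Ramb_v3.0, which was used for names only. A row was detected if none of its 3 values was under 1. Levels were means and SDs of the 3 values, or log2(value + 1) with a pseudocount of 1, which understates differences of low genes. No test was made. The members, the 8 related lists and the alternatives were chosen with earlier results of these data known. Named genes were the detected members, the members with a mean of at least 1, the highest of each family and the 3 highest of each related list, of which 1 gene is not reported here; others are named to account for every member, and rows outside the rule by name were chosen after their values were seen. Alternatives were other detection values, pseudocounts and scalings, summed copies and leaving out each library. Computations used Python 3.11.15, numpy 2.4.6, pandas 2.3.3 and scipy 1.17.1. The functions for detection, shares and rescaling were checked on deposited values with planted rows or on simulated data. Those for spread and median level were not checked in this way.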

Additional observations from a re-analysis of the deposited data

How the results depend on the processing

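The number of detected redox rows, 12, was 8 at a detection value of 2 (1.89% of all rows passed), 14 at 0.5 (7.56%), 14 with columns rescaled to the same total (4.25%) and 12 with copies summed. It was 21 when a value in 2 of 3 libraries sufficed (9.02% of all rows did), and 12 to 20 with a library left out, the 20 being without replicate 3, where 7.29% of all rows passed. The mean share of 1.20% was 0.903% to 1.36% with a library left out, 2.24% among rows with a symbol, and 0.548% without PRDX5, MGST1 and TXN, an alternative chosen after seeing the data. The median level of 0.54 is set by its scale. It was -1.11 and -0.11 with pseudocounts of 0.1 and 0.5, 3.21 over detected rows, 4.20 with columns rescaled, and 0.26 to 0.74 with a library left out. The count of rows highest in library 2 was 12 as deposited, 7 with columns rescaled and 8 after median-ratio scaling (374 of 981 detected rows then). The median SD of 1.38 was 0.31 to 1.79 with a library left out, the 0.31 being without replicate 2, and 0.84 after median-ratio scaling, against 0.52 over detected rows. The 3 related genes detected (3.23%) became 10 at a detection value of 0.5 (10.8%, against 7.56% of all rows), and 3 to 13 with a library left out, the 13 (14.0%) being without replicate 1 or 3, where 5.06% and 7.29% of all rows passed. For these changes the cause was not tested. Of the 24 rows that were detected or had a mean of at least 1, all kept their mean level within 1 SD with columns rescaled, while SOD1_2 moved further with its copy added. That limit is wide, because the SD was above the mean in many of these rows. With columns rescaled, 2 of the 24 fell by over 1.5 times, MGST1 from 62.1 to 40.9 and CAT from 3.33 to 2.17. Without replicate 2 the mean fell by over 1.5 times in 22 of the 24, MGST1 to 10.3 against 62.1 with all libraries and GSTP1 to 1.90 against 6.63. No paired analysis was possible because there is only 1 group. Rounding to 1 decimal and few reads limit short and low genes, the metallothioneins among them.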
